A study of Homo sapiens with 18 samples.

Results

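Chaperones are proteins that help other proteins fold, and the genes described here are 51 of the 19784 genes listed for each library. They were taken by name: 35 encode heat shock proteins, cochaperones, heat shock factors and subunits of the chaperonin TRiC of the cytosol and nucleus, 4 encode mitochondrial chaperones, and 12 encode chaperones and folding enzymes of the endoplasmic reticulum together with the transcription factor XBP1. RNA was measured by sequencing of poly(A) RNA in 18 libraries made from THP-1 cells, an established leukaemia line of monocytic type with the MLL-AF9 fusion. PHF8, the gene that was varied, is a histone demethylase that removes repressive methyl marks, and F279S is known as a form of it without catalytic activity.

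The first experiment held 4 libraries each of parental cells with no added form (wt), of the derivative carrying added PHF8 (named PHF8) and of the derivative carrying the F279S form (named F279S), all with no treatment or time in their labels. The second held 2 libraries each, on day 3, of ERAA (genotype PHF8AA, with 4-hydroxytamoxifen), ERDD (genotype PHF8DD, with 4-hydroxytamoxifen) and ERPHF8 (genotype PHF8, with no treatment named). The stated dose of 4-hydroxytamoxifen was 100 nM, and it was used to induce PHF8AA and PHF8DD. The letters ER, AA and DD, the promoters driving the added forms, and whether a line was a clone or a pool were not stated in the labels. The second experiment had no parental library, so ERAA, ERDD and ERPHF8 can be set against each other only, and each comparison with ERPHF8 is also one between lines with and without the treatment label. Nothing in the labels says whether libraries of a group came from separate cultures, so p-values measure the spread between these libraries, which may be technical.

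The libraries of the first experiment held between 18239474 and 51517469 reads, and those of the second between 40637157 and 41257753. PHF8 RNA was 45.5 to 54.0 CPM (reads scaled to the library total) in wt, 1900 to 2096 in PHF8, 5001 to 5781 in F279S, 1995 and 2305 in ERAA, 1098 and 1119 in ERDD, and 1900 and 1912 in ERPHF8. The PHF8 level thus differed between the lines compared. ESR1 (oestrogen receptor) RNA was 274.9 and 246.7 CPM in ERAA, 124.5 and 126.4 in ERDD, and 229.4 and 230.3 in ERPHF8. In the first experiment it averaged 0.8164 CPM in wt, 0.7787 in PHF8 and 0.7349 in F279S. The part of the PHF8 and ESR1 levels in the results was not tested. All 10 monocytic markers examined, among them CD14, LYZ and SPI1, averaged at least 1 CPM in every group, and their sum was 1899 to 3068 CPM. The 15 markers of T, B, erythroid, epithelial and fibroblast cells summed to 8.70 to 31.1 CPM. The highest sums were in F279S library 2 and PHF8 library 1, where collagen RNA was raised. COL1A1 was at 20.45 and COL3A1 at 3.18 CPM in the former, and at 13.28 and 7.246 in the latter. In F279S library 1 and PHF8 library 2, COL1A1 was at 1.125 and 1.685 CPM. The source of this RNA was not tested. In the first experiment, libraries 1 and 2 of every group stood apart from libraries 3 and 4, and these pairs of libraries, which the labels do not describe, bear on most results for the chaperones below.

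HSP70 proteins bind exposed hydrophobic stretches of a client and close on them when ATP is hydrolysed. J proteins (the DNAJ family) bring clients and start that hydrolysis, and nucleotide exchange factors, such as the BAG proteins and HSP110, let ATP bind again so that the client is released. HSP90 takes over partly folded clients, many of them kinases and steroid receptors, and TRiC encloses actin, tubulin and other proteins in a chamber made of its CCT subunits. The transcription factor HSF1 drives the cytosolic genes when unfolded protein builds up, while the unfolded protein response, in part through spliced XBP1, drives those of the endoplasmic reticulum. Leukaemic cells are known for a high demand on HSP90 and on the unfolded protein response.

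Matches to control sequences through which these 2 programmes are known to act were found in the promoters of several of the genes. RefSeq promoters (GRCh38.p14) were matched for 47 of the 51 genes, and the 250 bases upstream of each start were searched on both strands for a heat shock element of 3 units (GAA, TTC and GAA, or TTC, GAA and TTC, with 2 free bases between units) and for the endoplasmic reticulum stress response element (CCAAT, 9 free bases and CCACG, or on the other strand CGTGG, 9 free bases and ATTGG). Heat shock elements may overlap one another. The heat shock element was found in 3 of 47 promoters (6.38%), against 0.439% of 27305 promoters of the same length, and these 3 belonged to the cytosolic genes HSPA8, CHORDC1 and DNAJB6. The stress response element was found in 5 of the 12 genes of the endoplasmic reticulum (HSPA5, CALR, HSP90B1, XBP1 and CANX) and in 0 of 31 cytosolic and 0 of 4 mitochondrial promoters, against 0.0806% of all. A match describes letters in this window only, and binding was not tested. Each gene was searched at a single listed start, so promoters at other starts of the same gene were not examined. The windows searched for HSPA1A, HSPA1B, HSPH1, HSP90AA1, SDF2L1, HYOU1 and PDIA4, among others, held no match to either element. The sequences below were chosen from the promoters that held a match, and those of DNAJB6 and CANX are not shown. Promoters without a match are not shown either, whatever the change of their genes. Each sequence is written 5′ to 3′ on the gene's strand, ending at the base before the start, with motif bases in capitals.
HSPA8: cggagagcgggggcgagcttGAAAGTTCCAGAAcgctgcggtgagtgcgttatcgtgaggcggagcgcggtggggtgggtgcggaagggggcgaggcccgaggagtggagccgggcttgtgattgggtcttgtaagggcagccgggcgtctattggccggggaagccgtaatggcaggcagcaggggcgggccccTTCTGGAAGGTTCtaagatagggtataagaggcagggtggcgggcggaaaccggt
CHORDC1: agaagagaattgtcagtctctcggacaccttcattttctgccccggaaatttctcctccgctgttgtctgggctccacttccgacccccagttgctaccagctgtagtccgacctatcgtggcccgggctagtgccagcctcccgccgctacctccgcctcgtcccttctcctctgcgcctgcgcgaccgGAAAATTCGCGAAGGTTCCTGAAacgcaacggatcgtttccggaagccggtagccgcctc
HSPA5: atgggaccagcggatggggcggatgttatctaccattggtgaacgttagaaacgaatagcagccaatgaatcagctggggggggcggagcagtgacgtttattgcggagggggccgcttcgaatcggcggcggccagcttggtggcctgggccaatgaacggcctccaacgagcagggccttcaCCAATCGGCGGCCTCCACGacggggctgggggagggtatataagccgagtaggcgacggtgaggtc
CALR: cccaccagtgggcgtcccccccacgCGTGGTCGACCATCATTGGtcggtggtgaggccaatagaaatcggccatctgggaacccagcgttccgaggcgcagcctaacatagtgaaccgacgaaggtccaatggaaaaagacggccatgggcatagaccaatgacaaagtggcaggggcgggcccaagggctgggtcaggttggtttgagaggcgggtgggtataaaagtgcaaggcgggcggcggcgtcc
HSP90B1: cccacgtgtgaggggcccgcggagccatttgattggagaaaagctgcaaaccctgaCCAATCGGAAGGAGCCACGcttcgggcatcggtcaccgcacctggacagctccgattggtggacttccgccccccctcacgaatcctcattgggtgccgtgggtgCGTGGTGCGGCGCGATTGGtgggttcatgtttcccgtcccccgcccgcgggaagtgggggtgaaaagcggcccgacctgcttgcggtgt
XBP1: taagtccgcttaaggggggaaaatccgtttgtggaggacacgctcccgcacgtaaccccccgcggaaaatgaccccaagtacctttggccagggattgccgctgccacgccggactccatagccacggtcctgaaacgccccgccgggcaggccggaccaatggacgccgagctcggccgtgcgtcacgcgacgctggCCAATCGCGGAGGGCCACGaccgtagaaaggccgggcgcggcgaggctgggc
HSPA8 (chr11:123062137-123062386, minus strand) holds elements 230 to 218 and 55 to 43 bases before the start. CHORDC1 (chr11:90223050-90223299, minus strand) holds 3 overlapping elements between bases 60 and 38. HSPA5 (chr9:125241344-125241593, minus strand) holds its stress response element 66 to 48 bases before the start, and CALR (chr19:12938359-12938608, plus strand) 225 to 207 bases before it, in the opposite orientation. HSP90B1 (chr12:103930160-103930409, plus strand) holds 2, at 194 to 176 and at 89 to 71 bases. XBP1 (chr22:28800570-28800819, minus strand) holds the same element 52 to 34 bases before its start.

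Levels between genes were compared only per kilobase of annotated exon (GENCODE v29). On that scale and over the mean of the 6 groups, HSP90AB1 (938 CPM per exon kilobase), HSPA8 (908), CALR (781), HSP90AA1 (426) and HSPB1 (386) stood highest, and BAG2 (7.51), DNAJB4 (4.36) and HSPA1A (1.19) lowest. The constitutive HSP70 and HSP90 of the cytosol and the calcium-binding lectin calreticulin (CALR) thus led the set, while the stress-inducible HSPA1A and HSPA1B (14.8) were near the bottom. HSPA1A and HSPA1B are near-identical copies, so reads may be split or lost between them and their single values are uncertain.

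**Figure D1:**
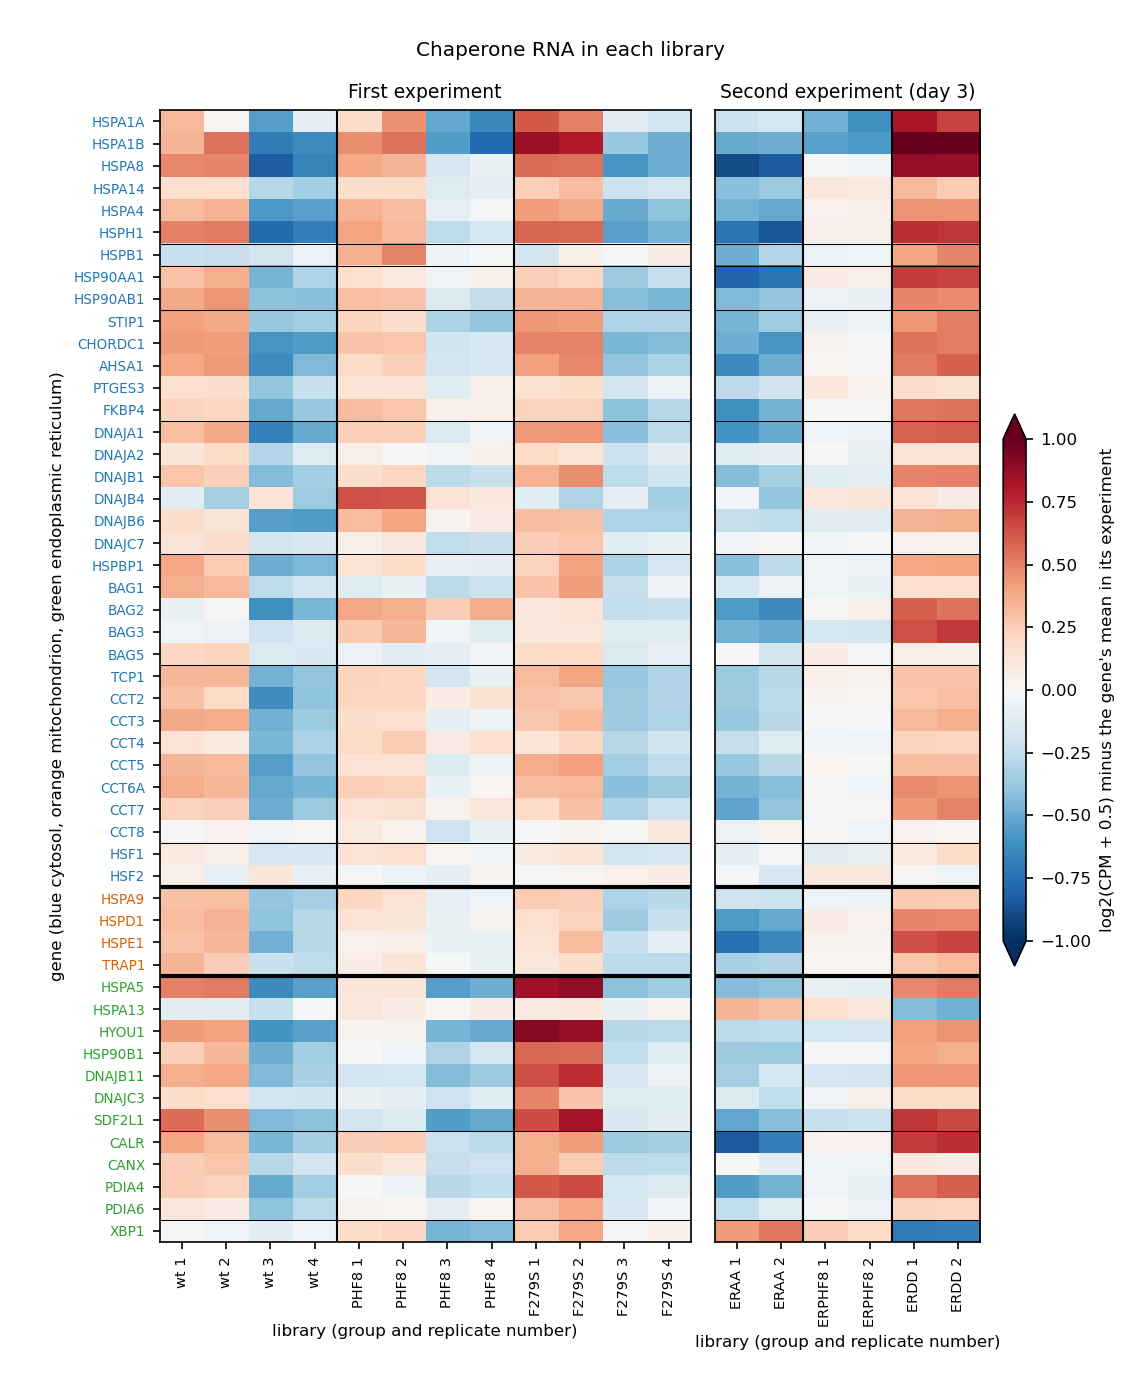
Each row is a chaperone gene and each column a library; colour gives log2(CPM + 0.5) minus the gene's mean in its experiment, with thin lines between roles and thick lines between compartments. Most genes are lower in libraries 3 and 4 than in libraries 1 and 2 of wt and F279S, and most rise from ERAA to ERPHF8 to ERDD, with XBP1 and HSPA13 in the opposite order.

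In ERDD against ERAA, most chaperone RNAs were higher in all 3 compartments. Of the 51 genes, 45 were called higher and 2 lower (limma on log2(CPM + 0.5), Benjamini-Hochberg adjusted p below 0.05 over 13831 genes), where 34.8% of all genes tested were called higher and 33.3% lower. The median log2 change was 0.73, against 0.00 for all genes. In the cytosol 31 of 35 genes were called higher (median 0.83), in the mitochondrion 4 of 4 (median 0.82), and in the endoplasmic reticulum 10 of 12 (median 0.69). The 2 called lower were XBP1 and HSPA13, both of the endoplasmic reticulum. The 4 that were not called, BAG5 (0.15), HSF2 (0.07), DNAJC7 (0.06) and CCT8 (0.04), are all cytosolic. The libraries of ERDD and ERAA did not overlap for 49 of the 51 genes, as for 83.7% of all genes tested.

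**Figure D2:**
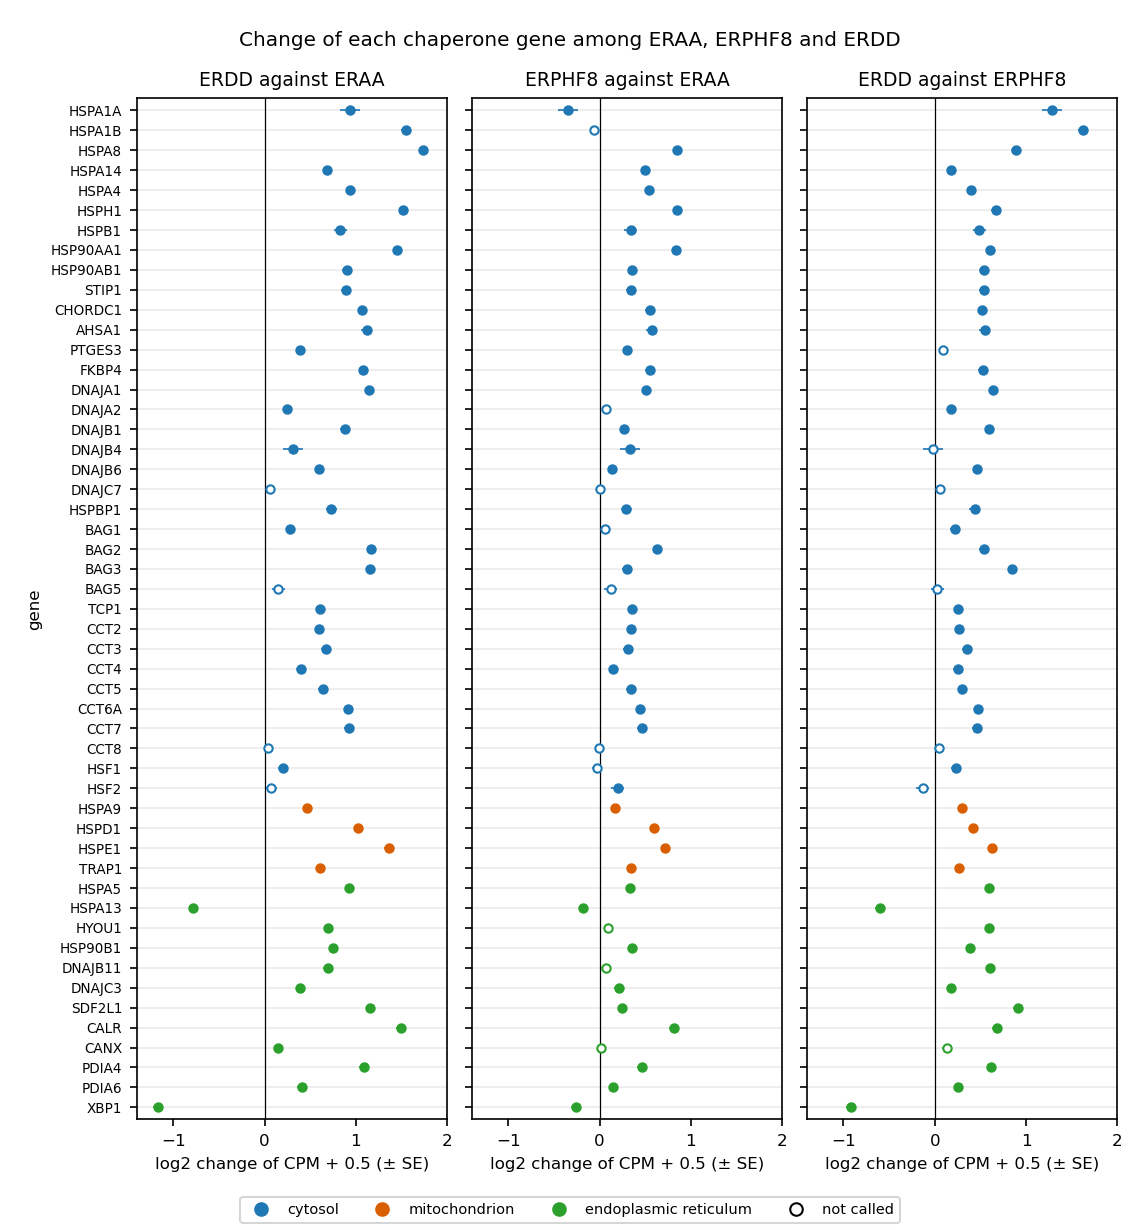
Points give the log2 change of each chaperone gene with its standard error in the 3 comparisons among ERAA, ERPHF8 and ERDD (n = 2 libraries each); filled points are called at an adjusted p below 0.05. In ERDD against ERAA the largest change is that of HSPA8 at 1.74 and the lowest that of XBP1 at -1.17.

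All 6 cytosolic HSP70 and HSP110 genes rose in ERDD. HSPA8, the constitutive HSP70 (chromosome 11, 123057489 to 123063230, hg38), was at 1145 and 1198 CPM in the ERAA libraries, 2131 and 2094 in ERPHF8, and 3918 and 3906 in ERDD. The 3 lines were well separated, with ERPHF8 between the others, and the log2 change of ERDD over ERAA was 1.74 ± 0.05 (SE, limma adjusted p = 7.9e-08). HSPH1, an HSP110 that exchanges nucleotide on HSP70, was at 232 and 215 CPM in ERAA, 403 and 402 in ERPHF8, and 646 and 636 in ERDD, a log2 change of 1.52 ± 0.05 (adjusted p = 1.5e-07) in the same order. The stress-inducible pair behaved differently. HSPA1B (chromosome 6, 31827735 to 31830255) was at 27.5 and 27.8 CPM in ERAA, 26.8 and 26.2 in ERPHF8, and 83.5 and 80.9 in ERDD, so that only the ERDD libraries were high. Its log2 change was 1.55 ± 0.05 in ERDD against ERAA (adjusted p = 1.6e-07) and -0.06 ± 0.05 in ERPHF8 against ERAA (adjusted p = 0.29). HSPA1A, at 2.78 and 2.88 CPM in ERAA, 2.24 and 1.99 in ERPHF8 and 6.21 and 5.58 in ERDD, was also high in ERDD alone, and in ERPHF8 it was called lower than in ERAA (-0.35 ± 0.11, adjusted p = 0.025), a call that is lost under some alternatives.

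The cytosolic HSP90 genes and their cochaperones moved with HSPA8. HSP90AA1, the inducible form, was at 813 and 850 CPM in ERAA, 1496 and 1478 in ERPHF8, and 2298 and 2256 in ERDD (ERDD over ERAA 1.45 ± 0.04, adjusted p = 1.6e-07). HSP90AB1, the constitutive form, was at 1926 and 1999, 2531 and 2490, and 3667 and 3633 CPM in the same lines (0.90 ± 0.05, adjusted p = 2.3e-06). Both were lowest in ERAA and highest in ERDD with no overlap. All 5 cochaperones were called higher in ERDD than in ERAA. AHSA1, which stimulates the ATPase of HSP90, was at 81.8 and 90.8 CPM in ERAA, 129 and 127 in ERPHF8, and 183 and 193 in ERDD (1.12 ± 0.06). FKBP4, an immunophilin of steroid receptor complexes, was at 69.0 and 76.1, 106 and 106, and 153 and 154 CPM (1.08 ± 0.05). CHORDC1, an HSP90-binding cochaperone and one of the genes with heat shock elements shown above, was at 45.0 and 42.0, 64.8 and 62.6, and 92.6 and 90.5 CPM (1.07 ± 0.05). The client adaptor STIP1 (0.89 ± 0.05) and the cochaperone PTGES3, known as p23 (0.39 ± 0.04), changed less. The small heat shock protein HSPB1, which holds unfolded proteins without ATP, was at 311 and 356 CPM in ERAA, 420 and 423 in ERPHF8, and 572 and 613 in ERDD (0.83 ± 0.07, adjusted p = 1.6e-05).

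Among the J proteins of the cytosol, 5 of 6 were called higher in ERDD than in ERAA. DNAJA1, a main partner of HSPA8, was at 259 and 276 CPM in ERAA, 383 and 376 in ERPHF8, and 591 and 596 in ERDD (1.15 ± 0.04). DNAJB1, an HSF1 target that works with HSP70 in disaggregation, was at 113 and 121, 140 and 143, and 215 and 216 CPM (0.88 ± 0.05). Most of its span lies within TECR (12686 shared bases, TECR at 187 CPM over all libraries), so its value is uncertain. DNAJB6, a suppressor of aggregation whose promoter holds a heat shock element, was at 68.3 and 67.2, 74.5 and 74.6, and 102 and 104 CPM (0.60 ± 0.04), with ERPHF8 close to ERAA. Of the nucleotide exchange factors, BAG2 was at 34.2 and 32.5 CPM in ERAA, 51.2 and 52.7 in ERPHF8, and 77 and 74.4 in ERDD (1.17 ± 0.05, adjusted p = 7.6e-07). BAG3, which directs clients to autophagy, was at 46.2 and 45.2, 56.7 and 56.3, and 99.9 and 105 CPM (1.16 ± 0.05, adjusted p = 5.4e-07), so that its main step lay between ERPHF8 and ERDD. HSPBP1 was at 31.6 and 35.2, 41.2 and 40.8, and 55.5 and 55.9 CPM (0.73 ± 0.06). BAG1 changed by 0.28 ± 0.05 and BAG5 by 0.15 ± 0.07, the latter not called.

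The chaperonin TRiC is a ring complex built from 8 different subunits, and 7 of its 8 genes were called higher in ERDD than in ERAA. CCT7 was at 260 and 285 CPM in ERAA, 372 and 378 in ERPHF8, and 507 and 528 in ERDD (0.92 ± 0.05). CCT6A was at 288 and 298, 401 and 394, and 556 and 547 CPM (0.91 ± 0.04), and CCT3 at 353 and 379, 456 and 454, and 575 and 589 CPM (0.67 ± 0.05). The other rises were 0.40 (CCT4) to 0.64 (CCT5). CCT8, the remaining subunit, was at 397 and 422 CPM in ERAA, 412 and 402 in ERPHF8, and 424 and 419 in ERDD, so its libraries overlapped, with a log2 change of 0.04 ± 0.04 (adjusted p = 0.41). Whether its change differed from that of the other subunits was not tested.

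The heat shock factors changed little. HSF1 was at 146 and 154 CPM in ERAA, 144 and 148 in ERPHF8, and 167 and 177 in ERDD, a log2 change of 0.20 ± 0.05 (adjusted p = 0.0066) that loses its call under some alternatives. HSF2 was at 23.0 and 20.6 CPM in ERAA, 25.2 and 24.9 in ERPHF8, and 23.4 and 22.5 in ERDD, was not called in ERDD (0.07 ± 0.07), and was called in ERPHF8 (0.20 ± 0.07, adjusted p = 0.035), a call that held in 7 of 12 alternatives. The RNA of a factor does not measure its activity, which for HSF1 is known to be set by protein binding and modification.

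All 4 mitochondrial chaperones rose in ERDD. HSPE1, the cap of the HSP60 chamber, was at 74.4 and 79.8 CPM in ERAA, 128 and 127 in ERPHF8, and 196 and 200 in ERDD (1.36 ± 0.05, adjusted p = 2.4e-07). HSPD1, the chamber itself (HSP60), was at 575 and 597, 898 and 881, and 1197 and 1188 CPM (1.02 ± 0.04, adjusted p = 6.1e-07). These genes stand head to head on chromosome 2, and as deposited the span of HSPE1 (197499994 to 197503457) lies wholly within that of HSPD1 (197486581 to 197516737), so reads there may have been counted for either gene or both. TRAP1, the mitochondrial HSP90, was at 147 and 149, 187 and 187, and 223 and 230 CPM (0.61 ± 0.04), and shares part of its span with DNASE1. HSPA9, the mitochondrial HSP70, changed by 0.47 ± 0.04. In each of the 4 the libraries ran in the order ERAA, ERPHF8, ERDD.

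In the endoplasmic reticulum, the chaperones that bind and fold clients rose in ERDD while XBP1 and HSPA13 fell. HSPA5 (BiP), the HSP70 of this compartment (chromosome 9, 125234853 to 125241330), was at 513 and 523 CPM in ERAA, 656 and 648 in ERPHF8, and 968 and 993 in ERDD (0.92 ± 0.04, adjusted p = 8.5e-07). SDF2L1, a partner of the J protein DNAJB11, was at 32.6 and 35.0, 40.2 and 40.4, and 77.6 and 74.6 CPM (1.16 ± 0.05, adjusted p = 1.0e-06). HSP90B1 (GRP94), the local HSP90, changed by 0.75 ± 0.04, the exchange factor HYOU1 by 0.69 ± 0.04, DNAJB11 by 0.69 ± 0.05 and DNAJC3 by 0.39 ± 0.05. Among lectins and disulphide isomerases, CALR (chromosome 19, 12938578 to 12944489) was at 773 and 852 CPM in ERAA, 1418 and 1423 in ERPHF8, and 2242 and 2305 in ERDD (1.49 ± 0.05, adjusted p = 3.8e-07). PDIA4 was at 145 and 154, 209 and 204, and 312 and 324 CPM (1.09 ± 0.05), and PDIA6 at 544 and 588, 637 and 620, and 753 and 749 CPM (0.41 ± 0.05). Calnexin (CANX), the membrane-bound relative of calreticulin, changed by 0.15 ± 0.05 (adjusted p = 0.025), a call that is lost under some alternatives.

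XBP1 (chromosome 22, 28794555 to 28800597) was at 280 and 300 CPM in ERAA, 247 and 238 in ERPHF8, and 127 and 129 in ERDD, a log2 change of -1.17 ± 0.05 (adjusted p = 5.6e-07). HSPA13, an HSP70-like ATPase of microsomes, was at 90.8 and 87.7 CPM in ERAA, 80.5 and 77.1 in ERPHF8, and 52.7 and 51.0 in ERDD (-0.78 ± 0.05, adjusted p = 4.0e-06). Both were lowest in ERDD with no overlap. XBP1 carries the same promoter element as HSPA5, CALR, HSP90B1 and CANX. Its RNA fell, while HSPA5, CALR and HSP90B1 rose and CANX changed little (0.15 in ERDD against ERAA). Splicing of XBP1 RNA cannot be read from counts over the gene's span.

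ERPHF8 lay between ERAA and ERDD for most chaperones. The means ran ERAA, ERPHF8, ERDD for 43 of the 51 genes, and for 38 of these every library kept that order, while for XBP1 and HSPA13 both ran in reverse. Over all 13816 named genes tested, 26.8% of means ran in the first order and 25.1% in the reverse. The other 6 were HSPA1A, HSPA1B, DNAJB4, CCT8, HSF1 and HSF2. In ERPHF8 against ERAA, 38 of 51 were called higher (29.7% of all genes) and 3 lower (24.1% of all genes), namely HSPA1A, HSPA13 and XBP1, with a median of 0.33 against 0.04 for all genes. In ERDD against ERPHF8, 42 were called higher (24.8% of all genes) and 2 lower (28% of all genes), XBP1 and HSPA13, with a median of 0.44 against -0.02. The libraries did not overlap for 44 genes in the first of these comparisons (76.3% of all genes) and 49 in the second (84% of all genes). The 3 comparisons share libraries, so their counts are not independent of one another. Within the endoplasmic reticulum the step from ERPHF8 to ERDD was 0.60 ± 0.04 for HYOU1 and 0.61 ± 0.05 for DNAJB11, and that from ERAA to ERPHF8 was 0.09 ± 0.04 and 0.07 ± 0.05, neither of them called.

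As a share of all reads, the 51 genes together made up 1.5 and 1.56% in ERAA, 2.05 and 2.03% in ERPHF8, and 2.86 and 2.86% in ERDD. In the first experiment the shares were 2.64, 2.67, 1.53 and 1.63% in wt libraries 1 to 4, 2.44, 2.41, 1.9 and 1.96% in PHF8, and 2.73, 2.77, 1.66 and 1.75% in F279S. The wt libraries alone thus ran from 1.53 to 2.67%, a range nearly as wide as that among ERAA, ERPHF8 and ERDD. In such bulk samples fewer cells of a type and less RNA per cell cannot be told apart. Beside these shares, the summed monocytic markers were 2404 to 2430 CPM in ERAA, 2026 to 2027 in ERPHF8 and 2413 to 2450 in ERDD. The sums hide single markers that moved in both directions. CSF1R was at 196 and 192 CPM in ERAA and 289.1 and 296.4 in ERDD, and CEBPA at 612.2 and 645.1 against 428.1 and 439.5. Of these lines, ERDD had the lowest PHF8. The part of the markers and of PHF8 in the chaperone levels was not tested.

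**Figure D3:**
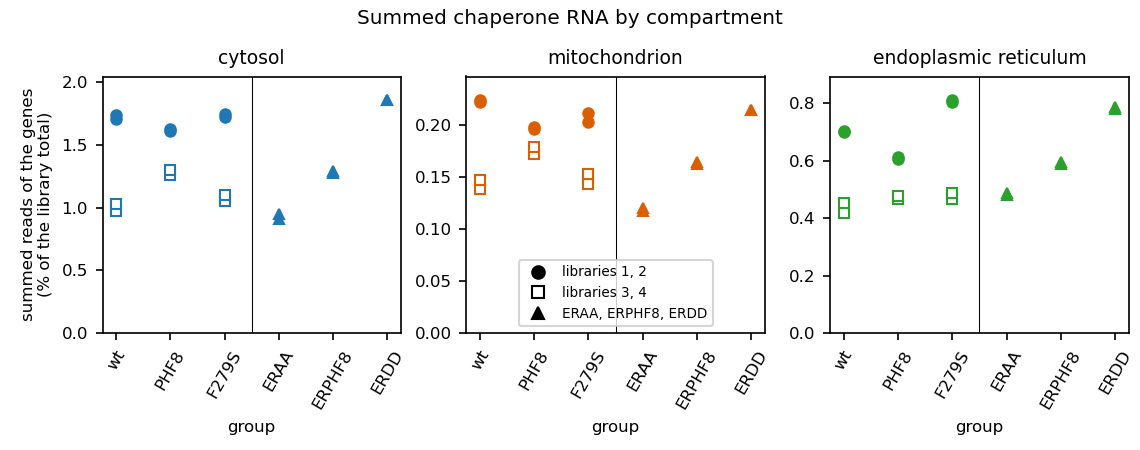
Summed reads of the chaperone genes as a percentage of the library total, by compartment; each point is 1 library, with libraries 1 and 2 and libraries 3 and 4 of the first experiment as different symbols. In the cytosol the sum runs from 0.908% in an ERAA library to 1.86% in both ERDD libraries, and from 0.972% in wt library 3 to 1.74% in wt library 2.

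In the first experiment the difference between the pairs of libraries was larger than that between the lines. Adjusted for line, 46 of the 51 genes were called lower in libraries 3 and 4 than in libraries 1 and 2 (29% of all genes) and 0 higher (33.9% of all genes), with a median log2 difference of -0.49. HSPA1B (-1.18 ± 0.06), HSPA5 (-1.0 ± 0.08), HSPH1 (-0.97 ± 0.08) and HSPA8 (-0.94 ± 0.10) differed most, and HSPB1, DNAJB4, CCT8, HSF2 and HSPA13 were not called. HSPA8 was at 3288, 3317, 1333 and 1482 CPM in wt libraries 1 to 4, at 3077, 2984, 2104 and 2239 in PHF8, and at 3483, 3464, 1570 and 1684 in F279S. Libraries 1 and 2 were high in all 3 lines, and the drop was smaller in PHF8. The median ratio of the first pair to the second over the 51 genes was 1.59 in wt, 1.48 in F279S and 1.19 in PHF8. CCT8, at 395, 410, 388 and 400 CPM in wt and 392, 403, 398 and 428 in F279S, showed no such gap there (ratios 1.02 and 0.964). In PHF8 it was at 424, 409, 343 and 376 CPM, and its ratio of 1.16 lay within the 1.05 (CCT7) to 1.28 (TCP1) of the other TRiC subunits. What separates the pairs is not given in the labels and was not tested.

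In the first experiment, libraries of the same number or pair went together across lines. Results for the 51 chaperones are thus given from the fit by line alone, with the replicate number as a block, and within each pair. Libraries 3 and 4 of a line differed more from each other than libraries 1 and 2 did. Over the recovered reads, chi-square per degree of freedom was 11.18 in wt, 7.836 in PHF8 and 10.93 in F279S, against 1.918, 1.919 and 5.438. That measure also rises with library size. Counts of calls within the pairs may thus differ in sensitivity. In PHF8 against wt, 3 of 51 chaperones were called higher by line alone (12.7% of all genes) and 0 lower (8.28% of all genes). At an unadjusted p below 0.05 there were 4, against 32.2% of all genes, and limma-voom on the recovered reads called 2, against 20.7% of all genes. BAG2 (chromosome 6, 57172326 to 57189833) was at 43.0, 45.6, 29.4 and 32.8 CPM in wt and at 59.3, 58.2, 53.8 and 58.5 in PHF8. Every PHF8 library lay above every wt library, and the log2 change was 0.62 ± 0.14 (adjusted p = 0.0075). It was called in each alternative run, with 0.40 within libraries 1 and 2 and 0.84 within libraries 3 and 4. The end of the span overlaps RAB23 by 2842 bases, and RAB23 stood at 26.8 CPM over all libraries. HSPB1 was at 313, 311, 320 and 350 CPM in wt and at 466, 513, 351 and 360 in PHF8 (0.37 ± 0.12, adjusted p = 0.044). The groups did not overlap, but the change was 0.65 within the first pair and 0.09 within the second (adjusted p = 0.31). DNAJB4, a cytosolic J protein, was at 8.06, 6.85, 9.66 and 6.74 CPM in wt and 13.9, 13.8, 9.78 and 9.49 in PHF8 (0.55 ± 0.15, adjusted p = 0.025). These groups overlapped, the change was 0.86 within the first pair and 0.24 within the second (adjusted p = 0.29), and the call held in 11 of 19 alternatives, as did that of HSPB1 in 9. Nearly all of its span lies in that of GIPC2 (38423 shared bases, 11.8 against 11.7 CPM), so these reads may belong to either gene. Without PHF8 library 1, PHF8 library 2 or wt library 2, BAG2 was the only chaperone called.

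With the replicate number as a block, 11 chaperones were called in PHF8 against wt (41.4% of all genes). The 9 higher were BAG2 (0.62 ± 0.08, adjusted p = 0.0002), DNAJB4, DNAJB6 (0.41 ± 0.08), HSPB1, CCT4 (0.31 ± 0.07), FKBP4 (0.29 ± 0.08), BAG3 (0.22 ± 0.06), HSPA13 (0.18 ± 0.05) and HSF1 (0.12 ± 0.04). The 2 lower were SDF2L1 (-0.39 ± 0.11, adjusted p = 0.014) and BAG1 (-0.23 ± 0.08, adjusted p = 0.046). Those higher were cytosolic apart from HSPA13. The 11 of 51 are a smaller share than that of all genes called.

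The change of PHF8 against wt depended on the pair of libraries. In libraries 1 and 2 alone, 7 chaperones were called higher (27.3% of all genes) and 21 lower (24.1% of all genes), with a median of -0.12. In libraries 3 and 4 alone, 27 were called higher (23.8% of all genes) and 1 lower (18.3% of all genes), with a median of 0.22. The difference between the pairs was itself called for 41 of the 51, 37 of them with a more positive change in libraries 3 and 4 (16.1% of all genes) and 4 with a more negative one (14.4% of all genes). Those 4 were HSPB1, DNAJB4, BAG3 and XBP1. HSPA8 showed the pattern, with a log2 change of -0.12 in libraries 1 and 2 (adjusted p = 0.07) and 0.63 in libraries 3 and 4 (adjusted p = 0.0015). For HSP90AA1 the values were -0.19 and 0.39 and for HSPE1 -0.26 and 0.31, each called in both pairs. XBP1 ran the other way, at 155, 151, 143 and 151 CPM in wt against 176, 179, 112 and 114 in PHF8, that is 0.21 and -0.38. In all, 14 chaperones were called in both pairs, and 12 of these changed in opposite directions, against 15.7% of the 3563 genes called in both. BAG2 and DNAJB6 rose in both. DNAJB6 was at 90.2, 86.4, 54.2 and 53.6 CPM in wt and at 99.3, 105, 81.6 and 84.0 in PHF8.

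**Figure D4:**
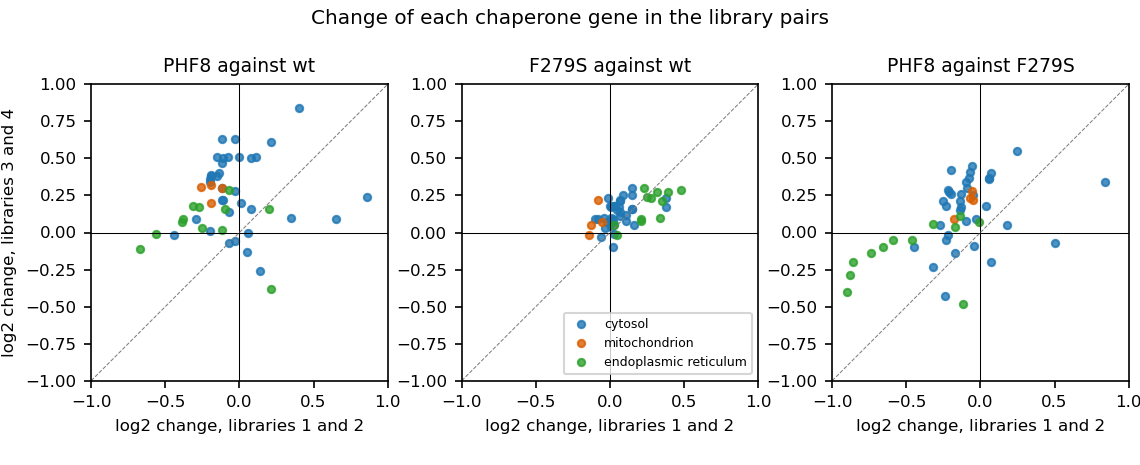
Each point is a chaperone gene, placed by its log2 change in libraries 1 and 2 (horizontal) and in libraries 3 and 4 (vertical); the dashed line marks equal change. In PHF8 against wt, 32 of 51 genes are negative in the first pair and positive in the second; in F279S against wt all 12 endoplasmic reticulum genes are above 0 in the first pair, and in PHF8 against F279S all 12 are below 0 there.

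Within each pair the median change of PHF8 against wt was lower for the genes of the endoplasmic reticulum than for the cytosolic genes. In libraries 1 and 2, 7 of 12 were called lower in PHF8 than in wt and 2 higher, XBP1 and HSPA13 (median -0.26). Of the 35 cytosolic genes 10 were called lower and 5 higher (median -0.07), and of the 4 mitochondrial genes all 4 lower (median -0.19). In libraries 3 and 4, 1 of 12 was called higher and XBP1 lower (median 0.08), against 22 of 35 cytosolic genes called higher (median 0.30) and 4 of 4 mitochondrial ones (median 0.31). SDF2L1 was at 108, 102, 53.9 and 55.1 CPM in wt and at 64.3, 66.9, 49.8 and 51.5 in PHF8, lower in both pairs and called in the first (-0.67 and -0.11, adjusted p = 5.1e-09 and 0.14). DNAJB11 was at 179, 182, 102 and 111 CPM in wt and 122, 123, 103 and 108 in PHF8 (-0.56 and -0.01). The difference between the compartments was not tested.

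F279S, the form known as inactive, gave few calls against wt outside libraries 1 and 2. By line alone, limma called 0 of 51 chaperones, where 0.0146% of all genes were called higher and 0% lower, 1 (HSPA13) had an unadjusted p below 0.05 (6.37% of all genes), and limma-voom called 0. The median was 0.10 against -0.01 for all genes, and 46 of 51 changes were positive. All 12 genes of the endoplasmic reticulum were positive (median 0.25), against medians of 0.09 in the cytosol and -0.02 in the mitochondrion. The median of these 12 was 0.27 in libraries 1 and 2 and 0.22 in libraries 3 and 4, where 1 was negative. With the block, HSPA1B alone was called (0.31 ± 0.07, adjusted p = 0.046; 2.18% of all genes). It was not called with each pair of libraries averaged (adjusted p = 0.97) or in libraries 3 and 4 alone (0.23, adjusted p = 0.41). In libraries 1 and 2 alone, 11 were called higher (7.45% of all genes) and 0 lower (6.75% of all genes), and 10 of the 11 were genes of the endoplasmic reticulum, the other being HSPA1B. In libraries 3 and 4 alone, 0 were called higher or lower, as were 0.0439% of all genes in each direction. HYOU1 was at 413, 405, 202 and 211 CPM in wt and at 577, 563, 252 and 255 in F279S. F279S was the higher line in both pairs, by 0.48 (adjusted p = 2.6e-07) and 0.29 (adjusted p = 0.12). PDIA4, at 282.9, 278.8, 166.8 and 186.2 CPM in wt and 363, 374, 210 and 214 in F279S, differed by 0.39 and 0.27, and HSPA5, at 878, 889, 399 and 425 CPM in wt and 1109, 1147, 466 and 485 in F279S, by 0.35 and 0.21. The change of F279S against wt did not differ between the pairs for any chaperone at the adjusted threshold (0.899% of all genes called), and 5 of 51 had an unadjusted p below 0.05, as had 9% of all genes.

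**Figure D5:**
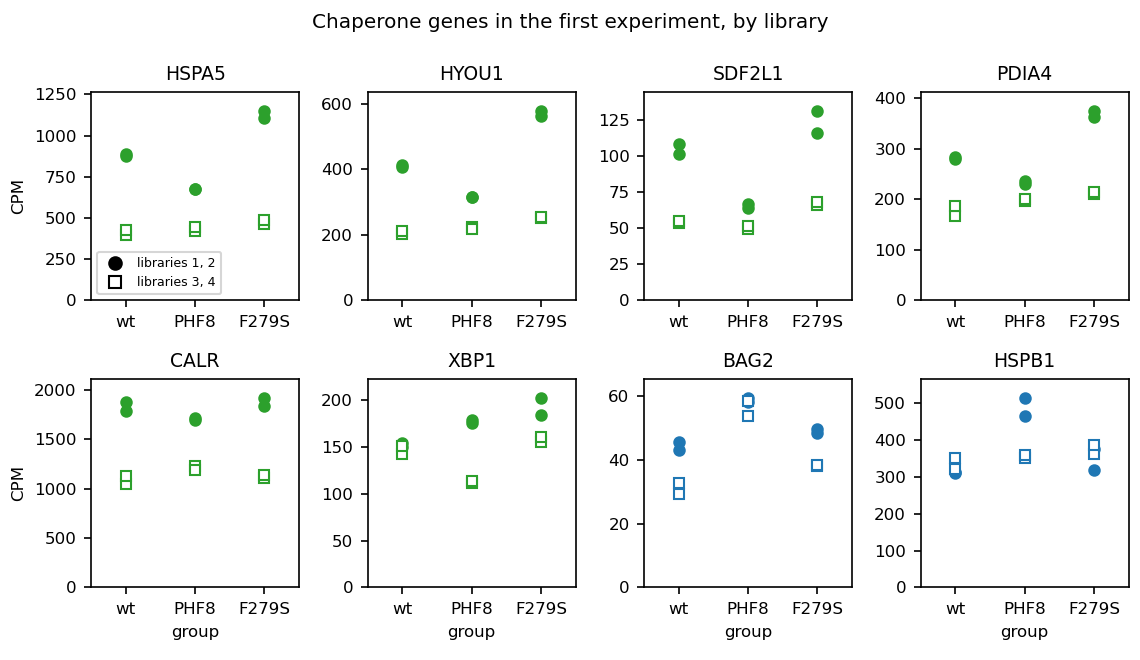
CPM of 8 chaperone genes in each library of wt, PHF8 and F279S (filled circles, libraries 1 and 2; open squares, libraries 3 and 4; green, endoplasmic reticulum; blue, cytosol). HSPA5, HYOU1, SDF2L1 and PDIA4 are highest in F279S and lowest in PHF8 within libraries 1 and 2 with no overlap, the wt and F279S libraries of CALR interleave there, and all 4 PHF8 libraries of BAG2 (53.8 to 59.3 CPM) lie above the other lines.

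PHF8 against F279S compared the active form with the inactive one. By line alone, 1 of 51 chaperones was called higher (12.2% of all genes), DNAJB4 (0.59 ± 0.15, adjusted p = 0.018), and 0 lower (7.92% of all genes). There were 4 with an unadjusted p below 0.05 (31.7% of all genes), and limma-voom called 2, DNAJB4 and BAG2 (20.9% of all genes). With the block, 17 were called (41.1% of all genes), 5 higher and 12 lower. The 12 lower held 8 of the 12 genes of the endoplasmic reticulum. These were SDF2L1 (-0.65 ± 0.11, adjusted p = 0.00082), DNAJB11 (-0.58 ± 0.11, adjusted p = 0.0018), HYOU1 (-0.53 ± 0.11, adjusted p = 0.0033), HSPA5 (-0.44 ± 0.10, adjusted p = 0.0068), PDIA4 (-0.38 ± 0.10), HSP90B1 (-0.32 ± 0.10), XBP1 (-0.30 ± 0.10) and DNAJC3 (-0.26 ± 0.08). The cytosolic genes called lower were HSPA1B, BAG1, DNAJC7 and STIP1, and those higher were DNAJB4, BAG2, FKBP4, CCT4 and DNAJB6. XBP1 was at 184, 202, 155 and 161 CPM in F279S and 176, 179, 112 and 114 in PHF8, so that its gap lay mainly in libraries 3 and 4.

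Within libraries 1 and 2, 4 chaperones were called higher in PHF8 than in F279S (29.4% of all genes) and 26 lower (24.4% of all genes). Of the 12 genes of the endoplasmic reticulum, 10 were among the lower, with a median of -0.53. Within libraries 3 and 4, 19 were called higher (20.3% of all genes) and 4 lower (14.9% of all genes). The 4 lower, HYOU1, DNAJB11, SDF2L1 and XBP1, all belong to the endoplasmic reticulum, and the 19 higher to the cytosol (16) and the mitochondrion (3). HYOU1, DNAJB11 and SDF2L1 were thus called lower in both pairs. HYOU1 was at 314, 315, 223 and 217 CPM in PHF8 and DNAJB11 at 218, 233, 124 and 134 in F279S, against the levels of the other lines given above. CALR, with 1695, 1709, 1231 and 1192 CPM in PHF8 and 1835, 1912, 1108 and 1133 in F279S, was called lower in libraries 1 and 2 (-0.14, adjusted p = 0.036) but stood at 0.11 in libraries 3 and 4, and at -0.01 ± 0.24 by line alone. With each pair of libraries averaged to 1 value, SDF2L1 was the only chaperone called (lower).

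A wider list of 98 other chaperone genes, 92 of them tested in the first experiment, 93 tested in the second, was read beside the 51. In ERDD against ERAA, 48 of 93 were called higher and 18 lower (34.8 and 33.3% of all genes). The largest rises were those of HSPA4L, an HSP110 relative (1.37 ± 0.07), DNAJA4 (1.35 ± 0.05) and MANF, a secreted protein of the endoplasmic reticulum (1.18 ± 0.07). HSPA4L was at 55.5 and 46.6 CPM in ERAA, 95.9 and 98.3 in ERPHF8, and 131 and 133 in ERDD, the same order as most of the 51. The largest falls were those of the small heat shock protein HSPB6 (-1.12 ± 0.14), HSF4 (-0.79 ± 0.10) and GRPEL2, an exchange factor of mitochondrial HSP70 (-0.77 ± 0.05). HSPB6 was near 1 CPM, at 1.55 and 1.73 in ERAA and 0.46 and 0.51 in ERDD. By role, 11 of 16 other HSP70 and HSP90 cochaperones, 9 of 14 other mitochondrial chaperones and proteases and 11 of 18 other folding enzymes of the endoplasmic reticulum were called higher, and 3 of 16 genes of degradation and stress sensing there, where the share of all genes was 34.8%.

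In ERPHF8 against ERAA, 27 of the 93 were called higher and 16 lower, shares of 29.03 and 17.2% that are near and below those of all genes (29.7 and 24.1%). The higher were led by HSPA4L (0.93), DNAJA4 (0.61) and BAG4 (0.60), and the lower by HSPB6 (-0.76), DNAJB2 (-0.59) and the inducible HSPA6 (-0.52). HSPA6 was near 1 CPM, at 1.28 and 1.37 in ERAA and 0.812 and 0.736 in ERPHF8. In ERDD against ERPHF8, 38 were called higher (24.8% of all genes), led by the collagen chaperone SERPINH1 (0.90), DNAJB5 (0.85) and CRELD2 (0.76), and 10 lower (28% of all genes), led by GRPEL2 (-0.93), AHSA2 (-0.53) and UGGT2 (-0.52). DNAJB5 was low as well, at 1.08 and 0.981 CPM in ERPHF8 and 2.10 and 2.45 in ERDD. SERPINH1 was at 77.8 and 79.2 CPM in ERAA, 89.2 and 85.0 in ERPHF8, and 164 and 163 in ERDD.

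By line alone, 5 of 92 were called higher and 4 lower in PHF8 against wt (12.7 and 8.28% of all genes). In PHF8 against F279S the counts were 8 and 5 (12.2 and 7.92% of all genes), so the shares lay below the background in both. That fit counts the gap between the pairs of libraries as spread. The list was not read with the block or within each pair, so the low shares may not hold there. HSPA2, a testis-enriched HSP70, was at 3.46, 4.33, 4.59 and 5.77 CPM in wt, 6.10, 5.48, 6.23 and 7.80 in F279S, and 9.58, 9.0, 10.3 and 9.37 in PHF8. The PHF8 libraries were the highest in both pairs (1.02 ± 0.14 against wt and 0.55 ± 0.14 against F279S). DNAJB5, a cytosolic J protein, was at 2.80, 2.58, 4.09 and 4.57 CPM in wt, 3.81, 3.62, 4.26 and 5.22 in F279S, and 1.62, 1.69, 1.53 and 1.88 in PHF8, and the PHF8 libraries were the lowest (-0.85 ± 0.17 against wt and -1.11 ± 0.17 against F279S). DERL3, of endoplasmic reticulum degradation (-0.60 ± 0.10), and the prefoldin subunit PFDN5 (-0.39 ± 0.08) were also lower than in wt, and ERO1B, an oxidase for disulphide formation (0.61 ± 0.11), and DNAJB12 (0.50 ± 0.14) higher. Against F279S, HSF4 (0.60 ± 0.18) led the rises, followed by HSPA2 and DNAJB12 (0.46 ± 0.14). In F279S against wt limma called 0 of 92, 5 had an unadjusted p below 0.05 (6.37% of all genes), and limma-voom was not read for this list.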

How the data were processed

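For each of 18 libraries the authors deposited RPKM values of 19784 genes over hg38 gene spans. STAR (2.7.0c), SAMtools (1.9) and DESeq2 are the tools listed in the submitters' processing notes, with no roles; how reads were counted, with which strand setting and annotation, is not given in the sources used here. RPKM times the span was a whole number of reads for 100% of values (within 0.001 reads). Reads sum to 100.1 to 104.6% of library totals, so some reads were counted more than once, and 20 of the 51 genes overlap another gene. CPM was RPKM times the span in kilobases.

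limma (3.58.1, R 4.3.3) was fitted to log2(CPM + 0.5), a scale that understates changes of low genes, by group over each experiment, for genes with at least 1 CPM in at least 4 (first experiment, 13683 genes) or 2 (second, 13831) libraries. All 51 genes passed. Calls used Benjamini-Hochberg adjusted p below 0.05 over all genes tested. The replicate block was used because deviations of same-numbered libraries of the first experiment correlated (0.48 to 0.91 over genes). Libraries of different numbers correlated at up to 0.59 in PHF8 against wt, 0.82 in F279S against wt and 0.64 in PHF8 against F279S. In these comparisons 3, 2 and 4 of 4 libraries correlated best with their own number. The correlations thus do not separate the replicate number from the pair of libraries, and the labels do not state a pairing. The scripts were tested on simulated data. Members and lists were chosen with earlier results of these data known. In each role, up to 3 called genes with the largest change were named, with HSPA1A, HSPA1B, HSF1 and XBP1; other genes were chosen after their values were seen.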

Additional observations from a re-analysis of the deposited data

Results flagged for a closer look

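The change of PHF8 against wt differed between libraries 1 and 2 and libraries 3 and 4 for 41 of the 51 chaperone genes, by a limma test of the difference itself. The labels name no difference between these libraries, and its source was not tested.

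PDIA6 in PHF8 library 3 stood at 515 CPM, with the nearest of the other 3 PHF8 libraries at 560. Its gap to that library was 0.87 of the group's range, above Dixon's critical value, the only such case among 153 groups of 4 libraries examined. Chance alone passes this test in about 5% of groups whose values come from a single population. For most of these genes the pairs of libraries stood apart, so few groups could pass. The number of cases thus does not measure the quality of the libraries.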

How the results depend on the processing

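In the first experiment the number of chaperones called depended on how the pairs of libraries were treated; the cause was not tested. With the replicate block it was 11 in PHF8 against wt, 1 in F279S against wt and 17 in PHF8 against F279S, and with the library pair as a factor 14, 1 and 18. In libraries 1 and 2 alone it was 28, 11 and 30, and in libraries 3 and 4 alone 28 in PHF8 against wt and 23 in PHF8 against F279S. With each pair averaged (chosen after seeing the data) it was 1 in PHF8 against wt. PHF8 against F279S gave 0 after quantile normalization and 2 with limma-voom. Leaving out 1 library gave 1 to 3 in PHF8 against wt (1 without PHF8 replicate 1, PHF8 replicate 2 or wt replicate 2), 0 in F279S against wt and 0 to 1 in PHF8 against F279S (0 without F279S replicate 4, PHF8 replicate 1 or PHF8 replicate 2).

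In libraries 1 and 2 alone, 19 changes that were called there had the opposite sign to the fit by line alone. Changes of sign without a call, such as that of HSPA8 in PHF8 against wt, were not counted. None of the 19 was called by line alone, where some lay near 0 (TRAP1 at 0.00 in PHF8 against wt). The changes counted for PHF8 against wt were HSPH1 (-0.15), HSP90AA1 (-0.19), CHORDC1 (-0.14), AHSA1 (-0.20), CCT3 (-0.20), CCT5 (-0.19), CCT6A (-0.12), HSPA9 (-0.12), HSPD1 (-0.19), HSPE1 (-0.26), TRAP1 (-0.19) and XBP1 (0.21). For PHF8 against F279S they were HSPA8 (-0.20), HSPH1 (-0.22), CHORDC1 (-0.21), DNAJA1 (-0.20), DNAJA2 (-0.13), TCP1 (-0.14) and CCT3 (-0.13).

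Among ERAA, ERDD and ERPHF8 the counts stayed within 1.5 times under the pseudocounts, filters, scalings, limma-voom, the replicate block (47, 41 and 44) and leaving out any library (44 to 49 in ERDD against ERAA, 32 to 44 in ERPHF8 against ERAA, 40 to 42 in ERDD against ERPHF8); where 1 library is left in a group it is assumed to vary like the others. Block pairing changed no other call. The replicate numbers of ERPHF8 and ERAA correlated negatively (-0.34), and a crossed pairing gave 41.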
